A study of Mus musculus with 9 samples.

Results

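Genes of the cell cycle and of cell growth were followed across 9 samples of CD8+ OT-1 T cells. They are Ccnd3, Cdk1 and Birc5, which promote division, the inhibitor Cdkn1a, and Tfrc, which serves growth. The members were taken by gene symbol from a table of 750 genes, and all 5 of 5 were present. The receptor of these transgenic cells recognises SIINFEKL, a peptide of ovalbumin (OVA). Splenocytes of OT-1 mice were primed with 1 μM of this peptide and 50 IU per ml of IL-2 for 48 h, and the purified CD8+ cells were grown on in IL-2, for 4 days in total. Each of the 3 groups held 3 samples. In OT-1 alone the primed T cells were kept without other cells. In the macrophage co-culture they were mixed with bone marrow-derived macrophages that had been loaded with 10 μM OVA peptide for 4 h, at 5 T cells per macrophage. The macrophage and tumor co-culture, called the tumor co-culture, also held CT2A-TRP2-B2mKO cells, at 10 T cells per tumor cell. These are mouse glioma cells transfected with the antigen TRP2 and lacking B2m, derived from sorted single cells that carried no surface MHC-I. They do not express OVA. CD8+ cells were sorted by flow cytometry after 24 h, a step that the labels describe for the co-cultures, and RNA was counted on an nCounter with a panel of immune genes, in which each transcript is tagged by a colour-coded probe and counted without amplification.

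The methods state lower T cell ratios than the sample labels, whose values are given here. They name IL-2 in the medium of the T cells cultured alone, without saying whether the co-cultures received it, while the protocol in the labels lists a medium without IL-2 for the 24 h. A difference in IL-2 or in sorting between OT-1 alone and the co-cultures cannot be told apart from the presence of the other cells. The deposit's design text calls the reference T cells naive, but its growth protocol and the paper describe primed cells. The samples of a group were separate co-cultures by the figure legends, without saying whether their T cells came from separate animals, so p-values measure the spread between cultures.

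Division of a T cell starts when signals from the T cell receptor and IL-2 raise D-type cyclins, which activate Cdk4 and Cdk6 and release the cell from G1 phase. Cyclin D3, encoded by Ccnd3, is the D-type cyclin on which thymocytes and other lymphocytes most depend. Cdk1 is the kinase that drives entry into mitosis, and survivin, encoded by Birc5, is a subunit of the chromosomal passenger complex that acts at the centromere and in cytokinesis, and belongs to the inhibitor of apoptosis family. The p21 protein, encoded by Cdkn1a, binds cyclin-dependent kinases and halts the cycle, and its gene is a classical target of p53. Tfrc encodes the transferrin receptor CD71, through which growing cells take up iron, and which activated T cells carry at high density. The RNA of cells in bulk is measured here, so that fewer cells in a given phase and less RNA per cell cannot be told apart.

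The promoters of Cdk1 and Cdkn1a are shown because they carry textbook elements of cell cycle and p53 control, whose action in these cells was not tested. They are the 100 bases before a start site in the RefSeq table of GRCm38.p6, in which the 5 members matched 8 windows of 300 bases (250 before and 50 after the start). Capitals mark matches to the cell cycle homology region (TTTGAA) and the CCAAT box (CCAAT, or ATTGG on the other strand) in Cdk1, and to a motif bound by p53 (GAACATGTC, or GACATGTTC on the other strand) in Cdkn1a. The last motif was chosen after the sequences were seen.
Cdk1, chr10:69352913-69353012, minus strand: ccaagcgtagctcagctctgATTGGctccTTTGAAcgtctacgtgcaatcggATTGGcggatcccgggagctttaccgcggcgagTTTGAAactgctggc
Cdkn1a, upstream start site, chr17:29090879-29090978, plus strand: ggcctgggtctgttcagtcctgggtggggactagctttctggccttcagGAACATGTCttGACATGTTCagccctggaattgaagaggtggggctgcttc

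Both strands were searched. The Cdk1 stretch held TTTGAA at 71 and 15 bases before the start and ATTGG at 80 and 48 bases. Over all 32851 windows in the table, 17.9% held TTTGAA and 37.4% held CCAAT. The Cdkn1a stretch held the p53 motif on both strands, beginning 51 and 40 bases before the start, and 0.152% of all windows held it on either strand. As that motif was chosen after the sequences were seen, its presence was fixed in advance. The share is that of these exact 9 letters and not of p53 sites in general. The other Cdkn1a window, at its downstream start, held none of the motifs searched, and neither did the window of Birc5. The E-box CACGTG and the E2F site GGCGGGAA, found in 7.15% and 2.19% of all windows, were in none of the members' windows. A match is a description of the letters and not a site shown to be bound.

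Against OT-1 alone, cyclin D3 and p21 RNA stood lower in either co-culture, Cdk1 RNA stood higher, and survivin and transferrin receptor RNA differed by less than 0.3 on the log2 scale as deposited. After centring on the median, Birc5 stood at −0.80 with macrophages and tumor and −0.77 with macrophages, and Tfrc at −0.53 and −0.44 (adjusted p = 1 for each). Cdk1 then stood at −0.05 with macrophages and tumor and at 0.25 with macrophages, and neither passed. Centring took more from macrophage sample 2, whose median was 7.8, than from macrophage samples 1 and 3 (6.3 and 6.48). As deposited, that sample's Birc5 was 10.64 against 10.44 and 10.52, and its Tfrc 13.00 against 13.16 and 13.06. The centred macrophage means therefore rest in part on this 1 sample. Values are log2 normalized counts, and groups were compared with limma over all 9 samples and all 750 genes, with Benjamini-Yekutieli adjustment and a threshold of 0.05. With macrophages, 2 of the 5 members fell (Ccnd3 and Cdkn1a) and 1 rose (Cdk1), where 6.53% of all genes fell and 11.9% rose. With macrophages and tumor, 1 fell (Ccnd3) and 0 rose, where 3.87% of all genes fell and 14.5% rose. Between the co-cultures 0 of 5 passed in either direction, where 2.67% of all genes were higher with tumor and 0.533% lower. At an unadjusted p under 0.05, 4 of the 5 members differed between the co-cultures, and 157 of the 750 genes did.

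**Figure D1:**
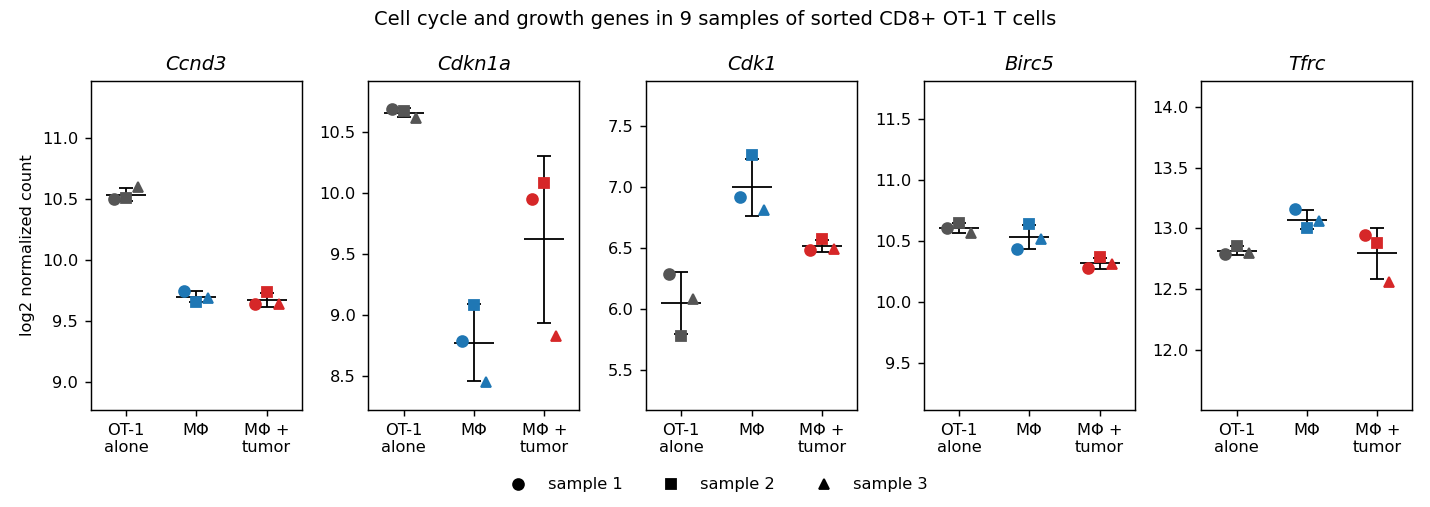
Log2 normalized count (y axis, each panel spanning 2.7 log2 units) of the 5 genes in T cells cultured alone (OT-1 alone), beside macrophages (MΦ) or beside macrophages plus tumor cells (MΦ + tumor). Symbols are the 3 samples of a group, and bars the mean and SD. For Ccnd3 both co-cultures lie below every sample of OT-1 alone, and for Cdkn1a sample 3 of the tumor group (8.83) lies among the macrophage samples.

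A shift in the median of all genes and an uneven depth touch these values. The median of all genes was higher than in OT-1 alone by 0.403 with macrophages and tumor and by 0.657 with macrophages. Without macrophage sample 2 the latter was 0.198. Every sample's low values were whole multiples of the worth of 1 count, which gave raw totals of 697664 to 1186183 counts in 8 samples and of 131941 in macrophage sample 2, whose counts had been scaled up by 6.38. The summed level of 7 CD8 T cell markers on the log2 scale was 15.36 to 15.43 in OT-1 alone, 15.73 to 15.79 in the macrophage co-culture and 15.89 to 15.99 in the tumor co-culture. Of these 7 markers, 4 rose and 0 fell past the threshold with macrophages and tumor, beside 14.5% and 3.87% of all genes. With macrophages 3 rose and 2 fell, beside 11.9% and 6.53%. Cd3e and Cd8a were above 11.5 in all samples. The summed level of 14 macrophage markers was 8.75 to 9.13 in OT-1 alone, 9.003 to 10.56 in the macrophage co-culture and 9.26 to 9.51 in the tumor co-culture. That of 11 markers of tumor or mesenchymal cells was 8.83 to 9.17, 8.90 to 10.72 and 9.16 to 9.23, and that of 7 B cell markers 6.95 to 7.33, 7.28 to 9.10 and 7.32 to 7.78. The highest of each was in macrophage sample 2. No marker was at 0, and the part of other cells in the members' values was not tested.

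Among the genes that promote division, Ccnd3 changed by nearly the same amount in both co-cultures. It measured 10.50, 10.51 and 10.60 in OT-1 alone, 9.75, 9.66 and 9.69 in the macrophage co-culture, and 9.64, 9.74 and 9.64 in the tumor co-culture. The co-cultures overlapped each other, and neither overlapped OT-1 alone. Behind these values stood 586 to 2127 counts per sample, or 127 in macrophage sample 2. With macrophages Ccnd3 fell by 0.84 on the log2 scale, or 1.79-fold (standard error 0.07, limma's adjusted p = 0.00104, n = 3 and 3). With macrophages and tumor it fell by 0.86 (standard error 0.07, adjusted p = 0.000716), or 1.82-fold. Between the co-cultures the difference was −0.03 (95% interval −0.20 to 0.14, adjusted p = 1). For the values as deposited, a further change of more than 0.20 in either direction thus lay outside the interval. The difference was −0.23 after quantile normalization and 0.16 after centring on the median.

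Ccnd3 was lower than in OT-1 alone under all 19 alternative settings for either co-culture. Centring each sample on its median widened its fall and ended both calls (−1.53, adjusted p = 0.0693, and −1.37, adjusted p = 0.171). It ranked the eighteenth by size among the 29 genes that fell with macrophages and tumor.

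Cdk1 was the member with the fewest counts. Its values were 6.29, 5.78 and 6.08 in OT-1 alone, 6.92, 7.26 and 6.81 in the macrophage co-culture, and 6.48, 6.57 and 6.49 in the tumor co-culture. The 3 groups did not overlap, with OT-1 alone at the bottom, the tumor co-culture between and the macrophage co-culture at the top. The counts behind them were 115, 77 and 60 in OT-1 alone, 145, 24 and 107 in the macrophage co-culture, and 85, 83 and 66 in the tumor co-culture. The highest value thus rested on the 24 counts of macrophage sample 2, whose exact 95% Poisson interval of 15.4 to 35.7 counts spans 6.62 to 7.83 on the log2 scale and covers counting error only.

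**Figure D2:**
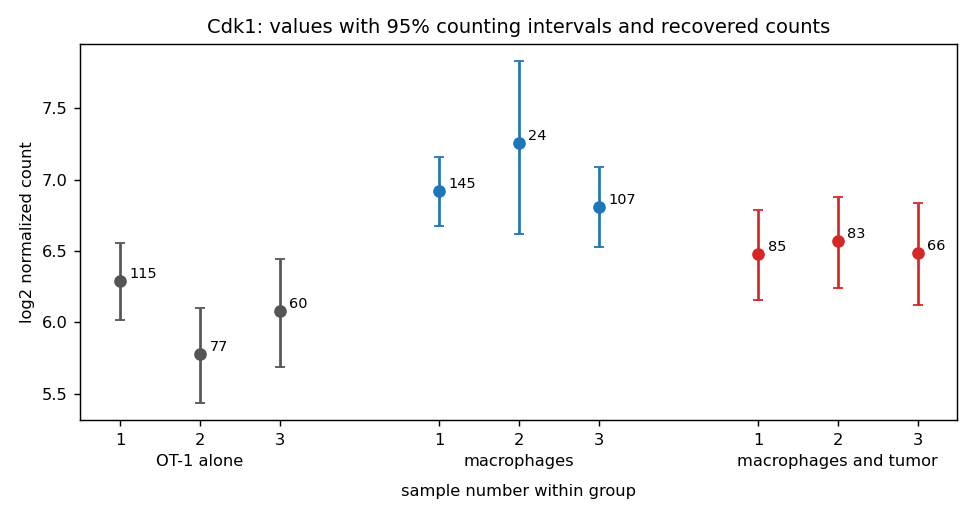
Cdk1 in each sample (x axis, sample number within group) as log2 normalized count (y axis), with exact 95% Poisson intervals of the recovered raw count, which is printed beside each point. The interval of macrophage sample 2 (24 counts) reaches down to 6.62, within the intervals of the tumor co-culture.

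Cdk1 rose with macrophages by 0.95 (standard error 0.16, limma's adjusted p = 0.0297), which is 1.93-fold, and was higher in 3 of 3 samples. The exact permutation test, two-sided, cannot give less than p = 0.1 for 3 against 3 samples, and gave that value here. Without macrophage sample 2 the rise was 0.82 (adjusted p = 0.0387 from limma). The call ended in 13 of 19 alternative settings. In 11 of these the difference stayed at 0.81 to 1.04, and in the other two it shrank, to 0.25 after centring on the median and 0.14 after quantile normalization (adjusted p = 1 for both). With macrophages and tumor the difference from OT-1 alone was 0.46 (95% interval 0.08 to 0.85, adjusted p = 0.56), which became −0.05 after centring. Between the co-cultures it was −0.48 (95% interval −0.87 to −0.10, adjusted p = 1).

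Birc5 had levels of 10.61, 10.65 and 10.57 in OT-1 alone, 10.44, 10.64 and 10.52 in the macrophage co-culture, and 10.28, 10.37 and 10.31 in the tumor co-culture. All 3 samples of the tumor co-culture lay below the other 6. The difference from OT-1 alone was −0.29 with macrophages and tumor (95% interval −0.47 to −0.11, adjusted p = 0.214 from limma) and −0.08 with macrophages (95% interval −0.26 to 0.11, adjusted p = 1). Between the co-cultures it was −0.21 (95% interval −0.40 to −0.03, adjusted p = 1). The difference with macrophages and tumor did not pass the threshold, but it passed in 6 of 19 alternative settings, among them quantile normalization (−0.59, adjusted p = 0.0147) and the fit without macrophage sample 2 (adjusted p = 0.0484). As the values were deposited, Cdk1 and Birc5, both used in mitosis, lay on opposite sides of OT-1 alone in the tumor co-culture, though neither difference passed. After centring on the median both lay below OT-1 alone, at −0.05 and −0.80.

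The inhibitor Cdkn1a had the widest spread of the members within each co-culture, and the narrowest in OT-1 alone. It measured 10.69, 10.67 and 10.62 in OT-1 alone and 8.79, 9.08 and 8.45 with macrophages. With macrophages and tumor it measured 9.95, 10.08 and 8.83, so that samples 1 and 2 lay between the other groups and sample 3 within the range of the macrophage co-culture. All 6 co-culture samples were below all 3 of OT-1 alone. The SD was 0.69 with macrophages and tumor, 0.32 with macrophages and 0.04 in OT-1 alone, while the counts (333 to 2427, and 85 in macrophage sample 2) put the counting error of every sample at 10.8% or less.

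With macrophages Cdkn1a fell by 1.89 on the log2 scale, or 3.70-fold (standard error 0.33, limma's adjusted p = 0.0318, n = 3 and 3), and it ranked the eighth by size among the 49 genes that fell. This call was lost in 6 of 19 alternative settings, each a fit without a sample. Those were macrophage sample 1 or 3, tumor co-culture sample 1, or any sample of OT-1 alone (adjusted p = 0.0631 to 0.148). With macrophages and tumor the difference from OT-1 alone was −1.04 (95% interval −1.82 to −0.26, adjusted p = 0.408), and it was −0.65 without sample 3 of that group (adjusted p = 0.376). Between the co-cultures Cdkn1a was 0.85 higher with tumor (95% interval 0.06 to 1.63, adjusted p = 1), and 1.24 higher without sample 3 (adjusted p = 0.114). Sample weights estimated from the data, which also discount samples that depart from their group, gave 1.36 (adjusted p = 0.015).

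**Figure D3:**
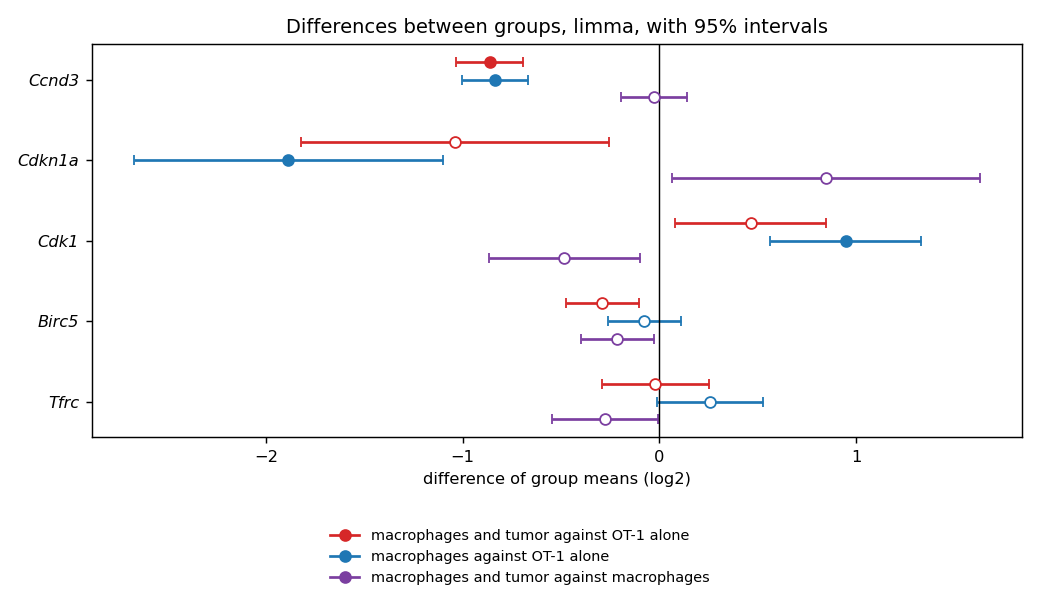
Difference between group means on the log2 scale (x axis) for each gene, with limma's 95% intervals. Filled points passed the threshold after adjustment over 750 genes, and open points did not. The filled points are Ccnd3 in either co-culture relative to OT-1 alone, and Cdkn1a (−1.89) and Cdk1 (0.95) with macrophages.

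Tfrc had close mean levels in OT-1 alone (12.82) and in the tumor co-culture (12.80). Its values were 12.79, 12.86 and 12.80 in OT-1 alone, 13.16, 13.00 and 13.06 in the macrophage co-culture, and 12.95, 12.88 and 12.56 in the tumor co-culture. The macrophage samples lay above the other 6, and sample 3 of the tumor co-culture was the lowest of all 9. The difference from OT-1 alone was −0.02 with macrophages and tumor (95% interval −0.29 to 0.25, adjusted p = 1 from limma) and 0.26 with macrophages (95% interval −0.01 to 0.53, adjusted p = 0.891), the latter −0.44 after centring on the median. Between the co-cultures it was −0.28 (95% interval −0.55 to −0.01, adjusted p = 1). Counts of 4432 to 10931 stood behind 8 of these values, and 1284 behind that of macrophage sample 2.

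In order of group means, Ccnd3 and Birc5 ran from OT-1 alone through macrophages to macrophages and tumor. Cdkn1a ran from OT-1 alone through macrophages and tumor to macrophages. Cdk1 ran from macrophages through macrophages and tumor to OT-1 alone, and Tfrc from macrophages through OT-1 alone to macrophages and tumor. Of the neighbours in these orders, those that differed past the threshold were OT-1 alone and macrophages for Ccnd3, and no others. By overlap alone, 3 of the 5 members (Cdk1, Birc5 and Tfrc) had all tumor co-culture samples below all macrophage samples, as 4.67% of all genes had, and 0 had them above, as 20.3% had. Against OT-1 alone, 3 members lay wholly below with macrophages and tumor (Ccnd3, Cdkn1a and Birc5) and 1 wholly above (Cdk1), beside 13.6% and 43.5% of all genes. With macrophages 2 lay wholly below (Ccnd3 and Cdkn1a) and 2 wholly above (Cdk1 and Tfrc), beside 15.1% and 38.0%. Both comparisons share the samples of OT-1 alone, and they share the samples of a co-culture with the direct comparison.

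Other targets of p53 were examined because Cdkn1a is the best known of them. Of 7 listed, 4 were measured, and 0 of 4 passed the threshold in either comparison with OT-1 alone, while 1 fell in each without macrophage sample 2 and 2 fell in each after quantile normalization. After centring on the median 1 fell with macrophages and 0 with macrophages and tumor. Tnfrsf10b, a death receptor gene, measured 7.48, 7.61 and 7.61 in OT-1 alone, 6.52, 7.07 and 6.36 in the macrophage co-culture, and 7.13, 7.26 and 6.49 in the tumor co-culture. Bax, a pore-forming BCL-2 family gene, measured 9.97, 9.93 and 9.95, then 9.41, 9.56 and 9.34, then 9.68, 9.73 and 9.34 in the same order. For both genes, as for Cdkn1a, every co-culture sample lay below OT-1 alone, and sample 3 was the lowest of the tumor co-culture. Among all genes, 13.6% lay wholly below OT-1 alone with macrophages and tumor, and 15.1% with macrophages. Bid, which links death receptors to mitochondria, was also below OT-1 alone in all 6 co-culture samples, with 7.85, 7.83 and 7.80 in the tumor co-culture. Fas, the receptor of Fas ligand, did not share the direction, with 5.97, 6.05 and 5.87 in OT-1 alone against 6.95, 7.04 and 6.06 in the tumor co-culture. Sample 3 was again the lowest of its group, as it was for the median of all genes (6.555 against 6.595 and 6.875). The median difference of the 4 genes from OT-1 alone was −0.475 with macrophages and tumor and −0.503 with macrophages, beside medians of 0.403 and 0.657 over all genes. Without macrophage sample 2 the values with macrophages were −0.588 for the 4 genes and 0.198 for all genes. RNA of p53 itself (Trp53) differed by −0.06 with macrophages and tumor and by −0.09 with macrophages (adjusted p = 1 for both). That of the upstream kinase gene Atm differed by 0.22 and 0.13 (adjusted p = 1 for both). After quantile normalization 1 of these 2 genes fell past the threshold with macrophages and tumor, and 0 did with macrophages. Neither gene passed after centring on the median.

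**Figure D4:**
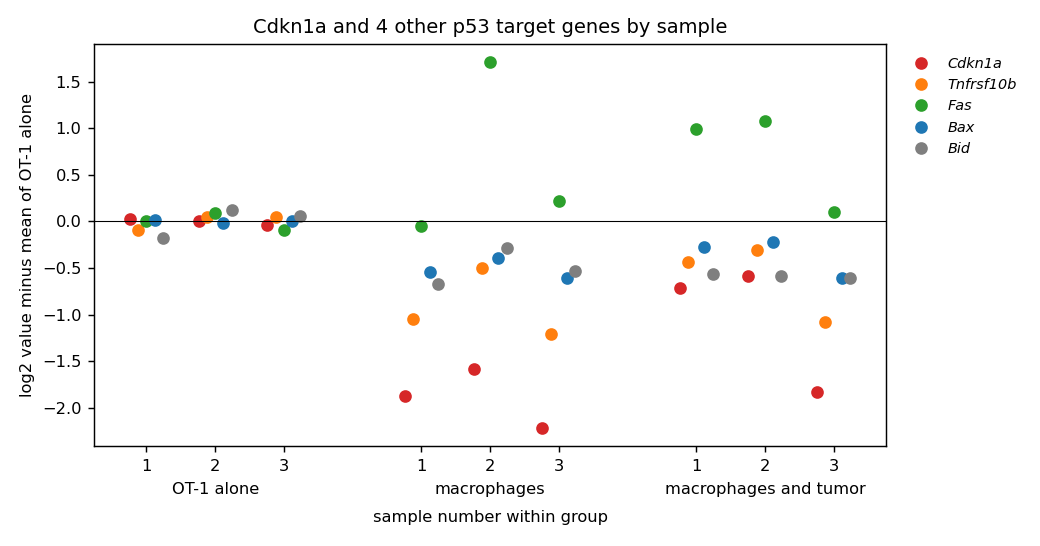
Log2 value minus the mean of OT-1 alone (y axis) of Cdkn1a and 4 other p53 target genes in each sample (x axis, sample number within group). In the tumor co-culture, Cdkn1a, Tnfrsf10b, Fas and Bax are lower in sample 3 than in samples 1 and 2, and Bid is level.

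Sample 3 of the tumor co-culture lay at least 0.3 below the lower of its companions for 18 of 371 genes whose mean was at least 100 normalized counts (4.85%), and for 116 of all 750 genes (15.5%). Cdkn1a, at −1.12, ranked 1 among the 371 and 7 among the 750, where the lowest gap was −1.5, and it was followed over the members by Tfrc at −0.32. Tnfrsf10b and Bax were among the 18 (−0.64 and −0.34), while Bid was not (−0.03), and Fas (−0.89) lies under that level. This comparison was chosen after the values were seen.

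Signals that feed division were represented by 23 measured genes of IL-2 and growth factor signalling and of the early response, Tfrc among them. Of the other 22, the tumor co-culture had 4 that rose and 1 that fell, and the macrophage co-culture 4 and 2. These counts stand beside 14.5% and 3.87% of all genes in the first and 11.9% and 6.53% in the second. After quantile normalization the balance turned in the tumor co-culture, where 2 rose and 5 fell, and it was 4 and 2 in the macrophage co-culture. Fos, an early response transcription factor gene, rose by 3.13 with macrophages and tumor (standard error 0.58, limma's adjusted p = 0.0382), while Egr1 and Egr2, of the same class, rose by 1.63 and 0.87. With macrophages Egr2 rose by 1.33, Egr1 by 1.25 and Egr3 by 0.87. Jak3, the kinase bound to the common γ chain, rose by 0.64 with macrophages and tumor and by 0.47 with macrophages. Il2ra, the α chain that gives the IL-2 receptor its high affinity, fell by 0.65 with macrophages and tumor (adjusted p = 0.0227) and by 0.95 with macrophages (adjusted p = 0.00401). Pik3cd, a lymphocyte PI3 kinase gene, fell by 0.84 with macrophages. Myc, a driver of growth in activated T cells, had differences of −0.15 (95% interval −0.35 to 0.05, adjusted p = 1) and −0.24 (95% interval −0.45 to −0.04, adjusted p = 0.522). The median of all 23 genes was 0.23 with macrophages and tumor and 0.0133 with macrophages, below those of all genes. After centring on the median, 1 gene passed with macrophages and tumor, upward, and 0 with macrophages. Without macrophage sample 2, 8 rose and 2 fell in the tumor co-culture, and 5 and 2 in the macrophage co-culture.

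**Figure D5:**
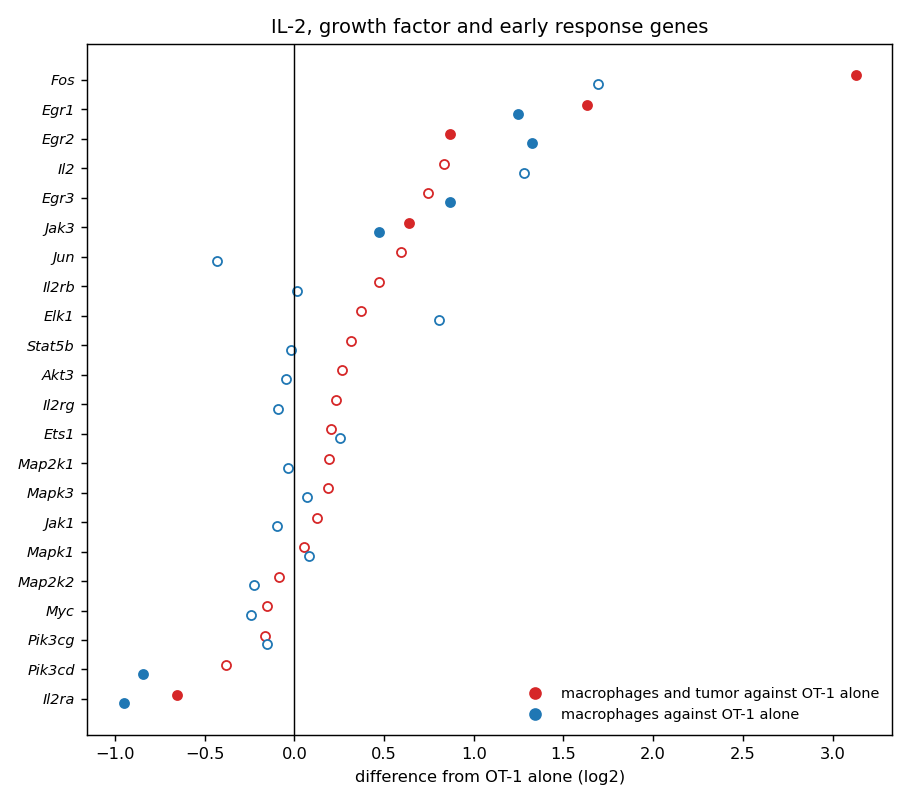
Difference from OT-1 alone on the log2 scale (x axis) of 22 genes of IL-2 and growth factor signalling and the early response, with macrophages and tumor (red) and with macrophages (blue). Filled points passed the threshold, with Fos highest at 3.13 and Il2ra at −0.65 and −0.95.

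Of 9 measured genes of TGF-β signalling and quiescence, which restrain T cell division, 1 rose and 1 fell in either co-culture. Across all 750 genes, the shares past the threshold upward and downward were 14.5% and 3.87% in the tumor co-culture. They were 11.9% and 6.53% in the macrophage co-culture. The receptor gene Tgfbr1 fell by 0.93 with macrophages and tumor and by 0.79 with macrophages, and Runx1, a transcription factor gene, rose by 1.15 and 1.03. After centring on the median 0 of the 9 passed in either co-culture, and without macrophage sample 2 the tumor co-culture had 3 that rose and 1 that fell. After quantile normalization 1 rose and 2 fell in the tumor co-culture, and 1 and 3 in the macrophage co-culture. The drivers of division on the panel were the members Ccnd3, Cdk1 and Birc5 alone (3 of 31 listed), and the inhibitors and checkpoint genes were Cdkn1a, Trp53 and Atm (3 of 19 listed). Of the inhibitor of apoptosis family, Birc5 was the member measured (1 of 5 listed).

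Genes whose profiles over the 9 samples lay closest to each member were found by the root-mean-square difference of mean-centred log2 values, among 371 genes with a mean of at least 100 normalized counts. For Ccnd3 they were Cd244 (0.115), Slamf7 (0.117) and Vim (0.126), 2 receptors of the SLAM family and vimentin, where the median over all genes compared was 0.50. For Cdkn1a they were Ifitm2 (0.345), Gzmb (0.354) and Gzma (0.394), an interferon-induced gene and 2 granzymes, beside a median of 0.889. Mean levels of Gzma were 14.48 in OT-1 alone, 12.10 in the macrophage co-culture and 12.90 in the tumor co-culture, the order of Cdkn1a. Cdk1 lay closest to Tirap (0.199), Cd96 (0.204) and Il18r1 (0.204), Birc5 to Psmd7 (0.0643), Atg5 (0.0727) and Hmgb1 (0.0854), and Tfrc to Mif (0.122), Casp1 (0.123) and Ulbp1 (0.125). The median distances for these members were 0.481, 0.312 and 0.319.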

How the data were processed

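The authors deposited log2 normalized counts with 2 decimals for 750 genes in 9 samples, made from nCounter counts with the vendor's software nSolver according to the methods; raw counts, reference genes and scaling factors were not used here. Raw counts were recovered from low values (under 30 normalized counts, or under 60 in macrophage sample 2), 100% of which were whole multiples of a step within 0.005 on the log2 scale, and Poisson intervals are at 95%. Replicate pairs differed by more than sampling noise (1.95 to 25.6 chi-square units for each degree of freedom), and every sample was kept as its own replicate.

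Groups came from sample titles. All genes and all 9 samples entered a single fit of group means, without a filter (lmFit, then eBayes; limma 3.58.1, R 4.3.3), tested two-sided with Benjamini-Yekutieli adjustment as in the methods, and the procedure was tested on simulated data. An exact permutation test was run for each member. Alternatives were 10 other settings and leaving out each of 9 samples. The members and gene lists were chosen with earlier results of these data known. Named beside the members were up to 3 genes per list and comparison past the threshold by size, the 3 nearest profiles per member, and markers. Trp53, Atm, Myc, Jak3, Egr3, Pik3cd and the p53 targets were named outside this rule after their values were seen. Levels were not compared between genes, since probes differ. Promoters came from RefSeq (GRCm38.p6).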

Additional observations from a re-analysis of the deposited data

How the results depend on the processing

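Of 285 values of the 5 members under 19 alternatives, 257 kept their call or lack of one, 21 lost a call, 7 gained one and 0 reversed a called direction. Centring on the median gave −1.37 and −1.53 for Ccnd3 in the tumor and the macrophage co-culture (calls lost), 0.25 for Cdk1 with macrophages (lost), and 28, 37 and 0 genes past the threshold in the 3 comparisons, against 138, 138 and 24. Quantile normalization gave 0.14 for Cdk1 with macrophages (lost) and −0.59 for Birc5 with macrophages and tumor (gained). Birc5 was also called at an unmoved −0.29 with Benjamini-Hochberg adjustment, with a trend and robust eBayes and by an unpaired t-test for each gene. Sample weights called it at −0.32, and also called Cdkn1a between the co-cultures at 1.36. At an unmoved 0.95, Cdk1 with macrophages lost its call with the trend, in the fit of 2 groups and by the unpaired t-test. It also lost the call with the replicate block (adjusted p = 0.122). Counts of genes were 280, 301 and 131 with sample weights, 226 and 62 with macrophages and between the co-cultures under Benjamini-Hochberg, 73 and 0 in fits of 2 groups, 80 and 0 by the t-test, 60 between the co-cultures with the trend, and 10 there with the replicate block. Leaving out a sample gave −0.32 to −0.27 for Birc5 with macrophages and tumor, −2.04 to −1.73 for Cdkn1a and 0.81 to 1.07 for Cdk1 with macrophages, and 96 to 223, 83 to 170 and 11 to 34 genes. The causes of these changes were not tested. Whether the sample numbers pair the samples is not known. Of 9 same-number pairs, 5 correlated above 0.1 (range −0.366 to 0.461), and 10 of 18 best matches had the same number, which does not settle it. The replicate block changed the call of no member other than Cdk1. List counts under centring, under quantile normalization and without macrophage sample 2 were added after seeing the data, and stand beside those lists. Depth limits Cdk1 most, with 24 to 145 counts per sample.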

Other observations

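The genes for which sample 3 of the tumor co-culture lay lowest against its companions, beside Cdkn1a, were in part effector genes of CD8 T cells. The chemokine genes Ccl4, Ccl3 and Ccl9 lay 0.77, 0.73 and 0.62 below the lower of samples 1 and 2 on the log2 scale, the granzyme B gene Gzmb 0.58, Ifng 0.53 and the perforin gene Prf1 0.49. Genes induced by interferon, Usp18, Bst2, Zbp1 and Irf7, were 0.47, 0.43, 0.33 and 0.31 below. Ccnd3 and Birc5 were not among these 18 genes, and Cdk1 lay under the level required. The raw total of that sample was 697664 counts, the lowest of the 8 deeper samples. These genes were picked for their values, and no test was made.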
